A study of Mus musculus with 3 samples.

Results

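The comparison set out here is that of diseased mice lacking CC10 with healthy wild-type mice, and it rests on 2 of the 3 arrays of the series. RNA of the sinonasal mucosa, which lines the nose and its sinuses, was pooled from 5 mice a group and hybridised to 1 Illumina bead array a group. The ECRS_KO array held RNA of CC10 knockout mice with eosinophilic chronic rhinosinusitis of the allergic kind, and the Control_WT array held RNA of wild-type mice without it. A further array, ECRS_WT, held RNA of wild-type mice with the same disease, and its values are given beside the others. All mice were C57BL/6 and 6 to 8 weeks old. The labels do not say how the disease was induced, which part of the gene was deleted or whether the mice were littermates. Genes were taken when their probe was detected (detection p-value under 0.01) on either of the 2 arrays, which gave 9085 of the 17349 genes with a named probe. Disease and genotype differ together between the 2 pools, so their parts in any difference cannot be told apart. With 1 array a group no difference has a replicate check or a p-value, and folds describe these pools.

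CC10, encoded by Scgb1a1, is the club cell secretory protein, a small secretoglobin that is abundant in the fluid of the airways. The nasal lining of the mouse has a respiratory epithelium of ciliated, secretory and basal cells and an olfactory epithelium of sensory neurons, sustentacular cells and Bowman's glands, above a lamina propria with serous glands, vessels and immune cells on turbinate bone and cartilage. Odorants are sensed through receptors that act by a G protein, adenylyl cyclase and a cyclic nucleotide-gated channel, and each mature neuron uses 1 of a very large family of receptor genes. In bulk tissue, fewer cells of a type and less RNA per cell cannot be told apart.

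The 2 arrays differed in brightness, with a mean signal of 465 on ECRS_KO and 295 on Control_WT, and with 12508 of 35226 probes detected on ECRS_KO and 11428 on Control_WT. ECRS_WT had a mean signal of 373 and 11992 detected probes. Levels below are log2 values after background correction and quantile normalization of the 3 arrays, a step that makes the 3 distributions of values equal. Summed signals, here and below, are taken before normalization and carry this difference in brightness. The label of the tissue was set against defining markers. Airway epithelial markers summed to signals of 25336 on ECRS_KO and 22053 on Control_WT, with Krt18, Krt5 and Bpifa1 detected on both and Epcam on neither. Eosinophil markers were sparse: 1 of 4 was detected on ECRS_KO and 2 of 4 on Control_WT, with summed signals of 1123 on ECRS_KO and 1342 on Control_WT, and Siglecf was detected on neither. The 3 skeletal muscle markers summed to 167 on ECRS_KO and 64.7 on Control_WT.

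The targeted gene went against the labels. The level of Scgb1a1 was 8.84 on ECRS_KO, 9.03 on ECRS_WT and 4.92 on Control_WT, where its probe was not detected (signals of 597, 493 and 3.32 before normalization). Between the array labelled ECRS_KO and that labelled Control_WT it was therefore higher by at least 12.6-fold under the processing used here. The log2 difference was 3.65, against 2.81 with an offset of 50, 2.11 in the authors' normalized values and 0.74, below 2-fold, with limma's own background inference. The gene has 1 named probe, and whether this lies inside the deleted part is not known here, so the signal on ECRS_KO may check nothing. Its lack on a wild-type pool is not touched by that. All directions below are between the arrays as labelled, and rest on labels that Scgb1a1 goes against. Of the 32 measured genes among the 20 neighbours on each side of Scgb1a1, none was higher and 4 were lower (Lrrn4cl, Best1, Ppp1r32 and Tmem216), with a median log2 difference of -0.25.

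Over all genes, 628 were called higher on ECRS_KO than on Control_WT, 6.91% of the 9085, and 514 were called lower, 5.66%, so that 12.6% were called in either direction. The counts of the lists below are to be read beside these shares, and a few calls in a short list say little. A call needed a difference of at least 2-fold and detection on the brighter of the 2 arrays. Signed values here and below are log2 differences of ECRS_KO minus Control_WT. Their median was -0.11, and the middle part of the genes detected on both arrays, without the lowest and highest 5%, lay between -1.02 and 1.05. The higher genes reached further: 26 of them exceeded a log2 difference of 3, against 4 of the lower genes in the other direction. Of the genes measured, 7252 were detected on both arrays, 1209 on ECRS_KO only and 624 on Control_WT only, and a gene of the last 2 kinds could differ in 1 direction only. Where the dimmer array did not detect the probe, as for 233 higher and 123 lower genes, its level there was set no lower than the lowest detected level and the fold is printed as "at least". The probes of 1 gene, over 647 genes, were apart by a pooled SD of 0.65 in log2. Of 77 called genes with 2 or more measured probes 54 had all probes in 1 direction. In 18 of the 77 all measured probes were called the same way, so most of these calls rest on part of the probes.

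**Figure D1:**
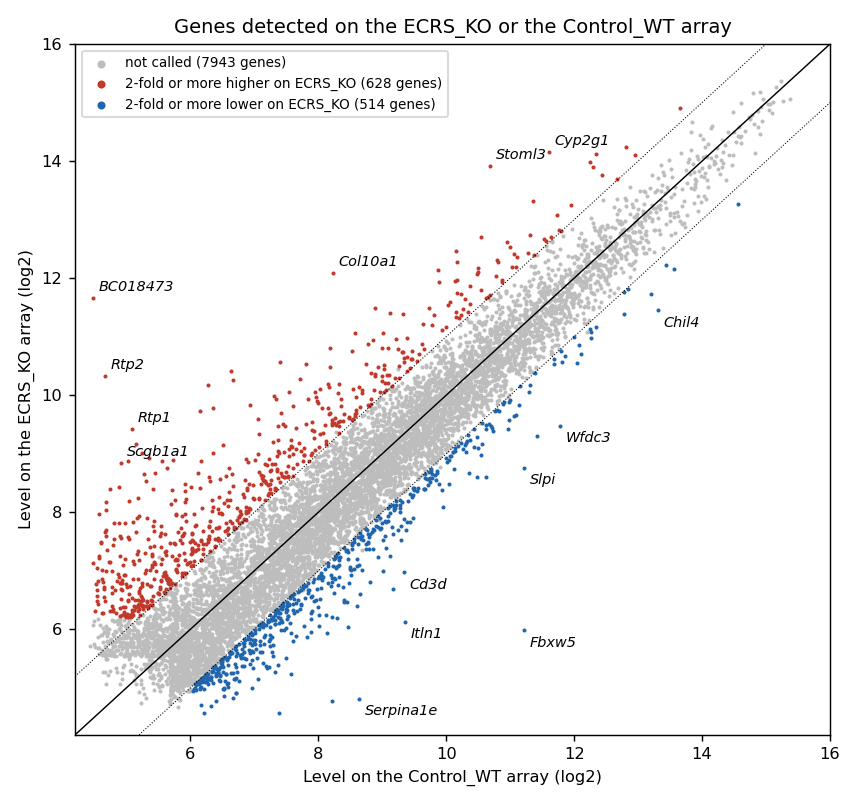
Log2 level of each of the 9085 genes on ECRS_KO (vertical axis) against its level on Control_WT (horizontal axis). The 628 genes called higher on ECRS_KO and the 514 called lower are coloured, and the higher genes spread further from the line of equal levels.

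The split between higher and lower genes depended on how the arrays were scaled to each other. When each array was instead brought to the same median, 1278 genes were higher and 129 lower, so that 90.8% of called genes were higher in place of 55.0%, and the median difference of the genes detected on both arrays was 0.24 in place of -0.13. When arrays were scaled on the probes detected on all of them, 565 were higher and 714 lower, 44.2% higher, with a median of -0.21. With no scaling, a choice added after the data were seen, 3467 were higher and 22 lower, and the median difference was 0.79. Of the 628 higher genes, 539 were called under each of these 3 scalings, and of the 514 lower genes 22 were. With no scaling 28 of 44 gene list medians changed sign, all from below to above 0, among them those of MHC class II (0.40), MHC class I (0.16), macrophage (0.11), complement (0.15), neutrophil (0.24), interferon (0.37), ciliated (0.40) and mucin genes (0.45). The lower directions of those lists are therefore relative to the other genes of the arrays. For some groups of lower genes the number still at 2-fold under median scaling is therefore given beside the count. Where it is not given, the calls need not have held. The number was 2 of 3 for MHC class I, neutrophil, keratinocyte and secretoglobin genes. It was 5 of 7 for other chemokine genes, 1 of 2 for complement and eicosanoid genes and 0 of 2 for junction and keratin genes. Limma's own inference of the background gave 213 higher and 148 lower genes.

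**Figure D2:**
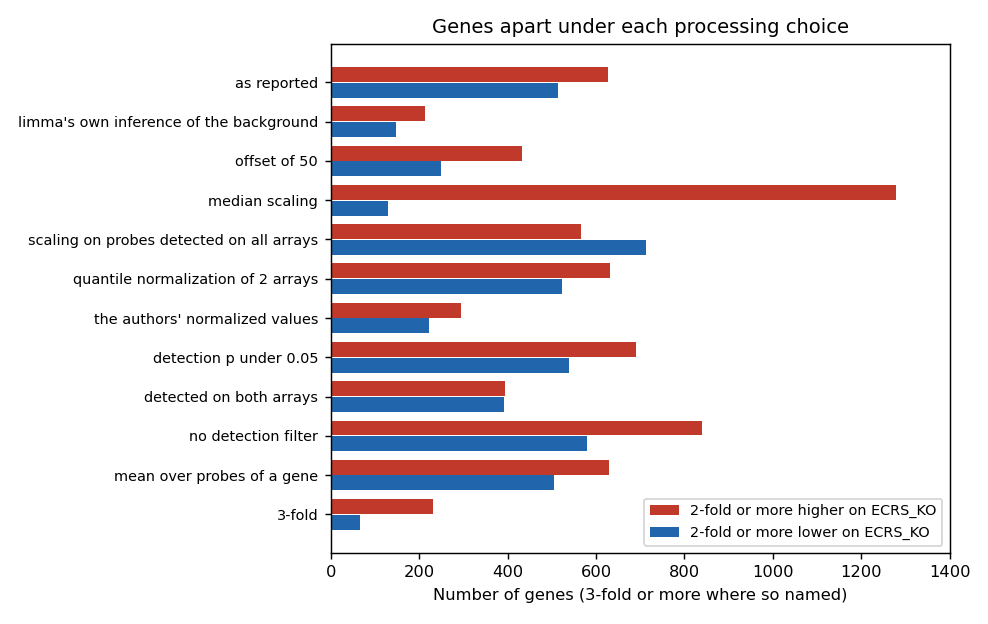
Number of genes called higher and lower on ECRS_KO than on Control_WT under each way of processing the same 2 arrays but no scaling. That choice, not drawn, gave 3467 higher and 22 lower genes. Median scaling gave 1278 higher and 129 lower genes, and the authors' normalized values 295 and 221.

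The highest list medians belonged to genes of olfactory neurons. Of 17 signal transduction genes with a probe, 14 were measured, 9 were higher and 1 lower, with a median log2 difference of 1.76 (2.04 with median scaling and 1.27 with limma's own inference). Stoml3, a stomatin-like protein of olfactory cilia, had a level of 13.91 on ECRS_KO, 12.06 on ECRS_WT and 10.69 on Control_WT, and was 9.34-fold higher on ECRS_KO than on Control_WT. The channel subunit Cnga4 had levels of 9.60, 7.72 and 7.05 on the same arrays, 5.85-fold higher on ECRS_KO. Its partner Cnga2, the main subunit of the odorant-gated channel, had levels of 12.27, 10.28 and 10.17, a 4.29-fold difference. The G protein alpha subunit Gnal was at least 4.88-fold higher, the beta subunit Gnb1 4.44-fold, the adenylyl cyclase Adcy3 4.23-fold and the Gnal exchange factor Ric8b 3.15-fold. The calcium-activated chloride channel Ano2, which amplifies the receptor current, was 2.26-fold higher, and the phosphodiesterase Pde4a at least 3.63-fold. In each of these genes the ECRS_WT level lay below ECRS_KO and nearer to Control_WT, except in Gnb1 (12.70 on ECRS_KO, 12.15 on ECRS_WT and 10.55 on Control_WT).

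Not every gene of the pathway shared this direction. The channel subunit Cngb1 was 2.48-fold lower, with levels of 6.12 on ECRS_KO and 7.43 on Control_WT, though its difference was -0.80 under median scaling. Omp, the olfactory marker protein of mature neurons, had levels of 13.72 on ECRS_KO, 13.58 on ECRS_WT and 13.54 on Control_WT, a difference of 1.14-fold that was not called. Gng13, the gamma subunit of the olfactory G protein, was 1.77-fold apart and not called. Both Omp and Gng13 lay near the top of the range of levels on all arrays. The 5 defining markers of olfactory neurons summed to signals of 42180 on ECRS_KO, 18397 on ECRS_WT and 12346 on Control_WT.

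Odorant receptors need chaperones of the RTP and REEP families to reach the ciliary membrane. All 3 measured members of this list, of 7 with a probe, were higher under quantile normalization, median scaling, limma's own inference and the authors' values. By the probes used, Rtp1 and Rtp2 were measured through ECRS_KO alone, so the filter let them differ in the higher direction only. Rtp2 had a level of 10.33 on ECRS_KO and 7.93 on ECRS_WT and was not detected on Control_WT (4.67), at least a 35.3-fold difference. Rtp1 had levels of 9.42 and 7.13 and was not detected on Control_WT (5.09), at least 18.8-fold, while another probe of the gene showed 4.39-fold. Reep1 had levels of 10.53 on ECRS_KO, 9.09 on ECRS_WT and 8.75 on Control_WT, 3.44-fold higher on ECRS_KO. Rtp3, Rtp4 and Reep6 were not detected on either array. Neither was Ust, which stands in the list but belongs to neither the RTP nor the REEP family.

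Genes of progenitors and immature neurons moved less evenly. Of 21 with a probe, 14 were measured and 5 were higher with none lower, with a median of 0.81 (1.22 under median scaling). Stmn4, a stathmin that binds tubulin in neurons, had a level of 9.99 on ECRS_KO, 7.80 on ECRS_WT and 7.32 on Control_WT, 6.40-fold higher on ECRS_KO. Crmp1, a collapsin response mediator of axon guidance, was 2.57-fold higher, and the adhesion molecule Ncam1 2.32-fold. The transcription factors Ebf3 and Ebf2 were 2.54-fold and 2.41-fold higher, and another probe of Ebf3 was 3.82-fold higher. Gap43, the growth cone protein of immature neurons, differed by 0.68 and was not called, and Tubb3 and Gng8 lay at -0.37 and -0.63, also not called.

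Ebf proteins are transcription factors of olfactory neurons that bind a palindromic site, so the promoters of these genes were searched for the letters CCCNNGGGA on either strand, a form chosen after a longer one, with 1 more T in front, had given few matches. The window ran from 250 bases before to 50 after the gene start, from RefSeq on GRCm38.p6. A gene was counted once, when any of its promoters held a match. Matches stood in 4 of 13 signal transduction genes with a promoter, in 1 of 4 trafficking genes and in 7.48% of all 27025 genes with a promoter. Some other lists held similar shares, with 5 of 14 epithelial junction and keratin genes and 3 of 10 adipocyte genes. Progenitor and immature neuron genes had matches in 3 of 14. Many lists held fewer, with 0 of 13 T cell genes, 0 of 18 macrophage and dendritic cell genes and 21 of 844 olfactory receptors. Of genes with a promoter, matches stood in 9.84% of the higher genes and in 9.28% of all measured genes. The longer form stood in 1.06% of all genes with a promoter and in 0 of the 13 signal transduction genes. Shown, with the match in capitals, are 3 promoters of higher olfactory genes picked for matches at a like distance, 67, 67 and 66 bases before the start, so that the likeness is one of choice. Other higher olfactory genes, Ebf3 and Pde4a, had matches at other distances. A match is a description of the letters and not a bound site, and Ano2 has 3 promoters in the table, of which 1 is shown.
Cnga2, chrX:71991599-71991898, plus strand: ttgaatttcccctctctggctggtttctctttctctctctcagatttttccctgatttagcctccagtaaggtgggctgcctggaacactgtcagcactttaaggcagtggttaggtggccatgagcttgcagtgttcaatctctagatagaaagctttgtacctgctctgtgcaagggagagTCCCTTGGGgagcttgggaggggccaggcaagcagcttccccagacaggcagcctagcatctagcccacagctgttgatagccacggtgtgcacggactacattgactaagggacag
Ano2, chr6:125710938-125711237, plus strand: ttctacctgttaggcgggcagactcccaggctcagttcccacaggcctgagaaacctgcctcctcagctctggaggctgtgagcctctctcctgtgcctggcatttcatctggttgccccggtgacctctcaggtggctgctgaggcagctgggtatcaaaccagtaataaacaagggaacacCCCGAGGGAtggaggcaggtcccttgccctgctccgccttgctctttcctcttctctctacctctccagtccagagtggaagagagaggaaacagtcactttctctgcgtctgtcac
Reep1, chr6:71707431-71707730, plus strand: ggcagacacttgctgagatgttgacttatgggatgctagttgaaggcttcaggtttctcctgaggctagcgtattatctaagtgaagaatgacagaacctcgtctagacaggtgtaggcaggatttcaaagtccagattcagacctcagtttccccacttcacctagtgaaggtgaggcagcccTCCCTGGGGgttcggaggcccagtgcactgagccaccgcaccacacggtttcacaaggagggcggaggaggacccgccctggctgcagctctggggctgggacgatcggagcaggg

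The receptors themselves were spread widely. Of 1002 olfactory receptor genes with a probe, 279 were detected on ECRS_KO, 144 on ECRS_WT and 171 on Control_WT, and 133 of them were detected on both ECRS_KO and Control_WT. Of the 317 measured on either of those 2 arrays, 112 were higher and 7 lower, with a median of 0.59 beside -0.11 over all genes and of 0.04 with limma's own background inference. Of the 317, 146 were measured through ECRS_KO alone and 38 through Control_WT alone, so that the filter itself fixed part of this split. Of the 133 detected on both, 30 were higher and 1 lower, with a median of 0.18. The signal of all 1002 probes before normalization summed to 46312 on ECRS_KO, 7884 on ECRS_WT and 4539 on Control_WT. Most of these probes were not detected, and the arrays differed in brightness (mean signals of 465, 373 and 295). The sums are therefore not to be read as folds. Olfr690 had a level of 9.17 on ECRS_KO and 6.76 on ECRS_WT and was not detected on Control_WT (5.15), at least a 15.7-fold difference. Olfr578 was at least 13.7-fold higher and Olfr424 at least 10.4-fold. Among those detected on both arrays, Olfr615 was 7.43-fold higher (9.83 on ECRS_KO, 7.38 on ECRS_WT and 6.94 on Control_WT) and Olfr1019 was 6.37-fold higher. The count of higher receptors was 149 under median scaling, 39 in the authors' normalized values and 4 with limma's own background inference. Near-identical receptors can share a probe's signal, so single receptors are uncertain.

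**Figure D3:**
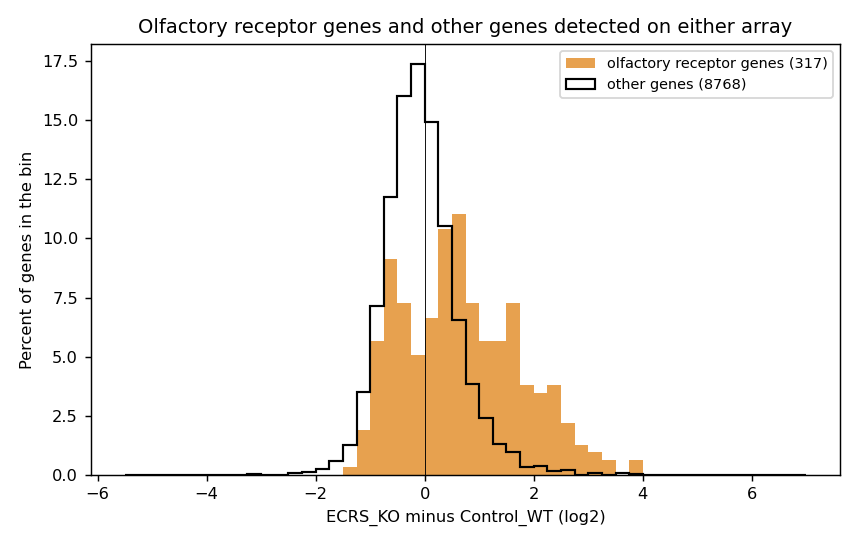
Share of genes (vertical axis, percent) by log2 difference of ECRS_KO minus Control_WT (horizontal axis) for the 317 measured olfactory receptor genes and for the other measured genes. The receptors have a median of 0.59 and a broad shoulder above 1, where 112 of them were called higher, and 146 of the 317 were detected on ECRS_KO only.

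The receptor genes lie in clusters on many chromosomes. On chromosome 7, which carries the largest number of measured receptors, 46 of 93 were higher, on chromosome 2 28 of 74 and on chromosome 9 14 of 35. On chromosome 11 4 of 24 were higher and on chromosome 16 0 of 9, with medians of -0.18 and -0.25. Over all chromosomes 112 of 317 were higher. These counts include receptors measured through ECRS_KO alone, 146 of the 317, which could only be higher. With limma's own inference 4 receptors in all were higher, so the differences between chromosomes are uncertain. Receptors of other nasal neurons were few: of 6 measured vomeronasal and trace amine genes 2 were higher, the trace amine receptor Taar2 2.76-fold and the G protein subunit Gnao1 2.23-fold.

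The supporting cells of the olfactory epithelium gave a divided picture. Of 11 measured genes of sustentacular cells and Bowman's glands 3 were higher and 1 lower, with a median of -0.05. Cyp2g1, an olfactory cytochrome P450, had a level of 14.15 on ECRS_KO, 13.39 on ECRS_WT and 11.60 on Control_WT, 5.85-fold higher on ECRS_KO. Ugt2a1, which conjugates odorants, had levels of 10.27, 10.06 and 7.71 on these arrays, 5.88-fold higher on ECRS_KO, and the sulfotransferase Sult1d1 was 2.20-fold higher. The aldehyde dehydrogenase Aldh1a7 was lower by at least 5.25-fold, with no detection on ECRS_KO (4.58) and a level of 7.39 on Control_WT. Gpx6 and Cyp2f2 differed by 0.38 and -0.05 and were not called. In Cyp2g1 and Ugt2a1 the ECRS_WT level lay nearer to ECRS_KO, unlike in Stoml3 or Cnga2.

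T cell, B cell and plasma cell genes were lower on ECRS_KO in part, and the number depended on the processing. Of 21 T cell genes with a probe 7 were measured, of which 0 were higher and 5 lower, with a median of -1.25, and 3 were still at 2-fold under median scaling, where the median was -0.79. Cd3d, a subunit of the T cell receptor complex, had a level of 6.97 on ECRS_KO, 9.11 on ECRS_WT and 9.34 on Control_WT, 5.18-fold lower on ECRS_KO. Cd3e had levels of 6.79, 8.88 and 8.48 on the same arrays, 3.21-fold lower, and Cd3g was 2.38-fold lower. The adhesion receptor Cd2 was at least 2.69-fold lower and the homing receptor Ccr7 2.22-fold. None of the 7 was called under limma's own inference, and with no scaling 1 was lower, with a median of -0.23. The 3 Cd3 signals before normalization summed to 478 on ECRS_KO, 1507 on ECRS_WT and 868 on Control_WT. Of 8 measured B cell and plasma cell genes 5 were lower and 0 higher, with a median of -1.23. With median scaling 3 were lower (median -0.78), with limma's own inference 1 (-0.17) and with no scaling 0 (-0.23). Mzb1, a chaperone of antibody-secreting cells, was 3.64-fold lower, the plasma cell receptor Tnfrsf17 3.36-fold and the B cell receptor subunit Cd79b 2.87-fold, with Cd37 at 2.52-fold and the coactivator Pou2af1 at 2.17-fold.

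Antigen presentation genes were lower in part. Of 11 measured MHC class II genes 4 were lower and 0 higher, with a median of -0.44, and 2 were at 2-fold under median scaling. H2-Eb1 had a level of 10.99 on ECRS_KO, 12.47 on ECRS_WT and 12.27 on Control_WT, 2.43-fold lower on ECRS_KO, and H2-Aa was 3.04-fold, H2-Oa 2.24-fold and the class II transactivator Ciita 2.09-fold lower. The invariant chain Cd74 and the beta chain H2-Ab1 differed by -0.44 and -0.26 and were not called. Of 10 measured MHC class I genes 3 were lower and 1 higher. The lower ones were the immunoproteasome subunits Psmb9 (2.64-fold) and Psmb10 (2.49-fold) and the class I transactivator Nlrc5 (2.55-fold). The higher one was Tapbp, which loads peptide onto class I molecules, at 2.35-fold.

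Myeloid genes were mixed in size. Fcer1g, the gamma chain shared by Fc receptors, had a level of 9.30 on ECRS_KO, 11.19 on ECRS_WT and 11.42 on Control_WT, 4.33-fold lower on ECRS_KO, and it was called lower under every background, scaling and source of values tried. Of 8 measured macrophage and dendritic cell genes 3 were lower and 0 higher, with a median of -0.82, and 1 was at 2-fold under median scaling: Trem2, a lipid receptor, was 3.73-fold lower, the complement subunit C1qa 2.39-fold and the endotoxin co-receptor Cd14 2.34-fold. C1qc and Ms4a7 lay at -0.29 and -0.00 and were not called. The signals of C1qa, C1qc and Ms4a7 before normalization summed to 1563 on ECRS_KO, 3199 on ECRS_WT and 1209 on Control_WT. Of 9 measured complement genes 2 were lower, among them C2 at 2.65-fold. Cfi, the complement protease factor I, had a level of 6.04 on ECRS_KO, 8.38 on ECRS_WT and 8.46 on Control_WT, 5.36-fold lower on ECRS_KO.

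Granulocyte genes held 4 lower calls. Of 12 measured neutrophil genes 3 were lower, namely Lcn2, a siderophore-binding lipocalin (2.77-fold), the cathelicidin Camp (2.63-fold) and the protease Ctsg (2.22-fold), while S100a8 and Ngp differed by -0.51 and 0.62 and were not called. Lcn2 had a level of 11.73 on ECRS_KO, 13.51 on ECRS_WT and 13.20 on Control_WT. Of 8 eosinophil genes with a probe 3 were measured, with a median of -0.86 (-0.68 under median scaling and -0.05 with limma's own inference). Of these 3, 2 were not detected on ECRS_KO, so the filter let them differ in the lower direction only. Prg2, the eosinophil major basic protein, had a level of 9.72 on ECRS_KO, 9.86 on ECRS_WT and 10.83 on Control_WT, 2.15-fold lower on ECRS_KO, and it did not reach 2-fold under median scaling (-0.79). Of 5 measured mast cell and basophil genes 1 was lower, the chymase Cma1 at 2.12-fold, with -0.54 under median scaling.

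Chemokines that attract eosinophils and T helper type 2 cells were mostly lower, but the number depended on the processing. Of 7 measured, 5 were lower and 0 higher, with a median of -1.09, and 3 were at 2-fold under median scaling. With limma's own inference 0 were lower (median -0.15), and with no scaling 2 were (-0.05). For 4 of the 7 the dimmer array did not detect the probe. Ccl5 was at least 5.03-fold lower, with no detection on ECRS_KO (5.24) and levels of 7.0 on ECRS_WT and 7.57 on Control_WT. Ccl17, a ligand of CCR4, was at least 4.14-fold lower, and Ccl8 was 4.0-fold lower with levels of 6.21 on ECRS_KO, 8.58 on ECRS_WT and 8.21 on Control_WT. Ccl7 and Ccl12, both monocyte attractants, were 2.13-fold and 2.01-fold lower. The eotaxin Ccl11 differed by 0.13 and was not called. Of 18 other chemokine and receptor genes 7 were lower and 0 higher, with a median of -0.54. Xcl1, a lymphocyte chemokine, was 4.31-fold lower, the interferon-induced Cxcl9 3.70-fold and its receptor Cxcr3 at least 3.30-fold, and Cxcl16, Ccl3, Ccl21a and Ccl9 made up the count at folds between 3.19 and 2.22.

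Few cytokines of type 2 inflammation were detected. Of 13 type 2 cytokine and receptor genes with a probe 6 were measured and none was called at 2-fold. Il4, Il5, Il25 and Tslp were not detected on either array. Il13 was detected on both and had a level of 6.64 on ECRS_KO, 6.65 on ECRS_WT and 6.73 on Control_WT, a difference of -0.10. The epithelial alarmin Il33 had a level of 11.72 on ECRS_KO, 11.30 on ECRS_WT and 11.30 on Control_WT, and Il13ra1 differed by 0.12. Of 12 measured genes that respond to interleukin-13 in airways 1 was lower: Itln1, an intelectin that binds microbial sugars, had a level of 6.13 on ECRS_KO, 7.61 on ECRS_WT and 9.36 on Control_WT, 9.39-fold lower on ECRS_KO. Of 7 chitinase-family genes 1 was lower: Chil4, a secreted chitinase-like lectin, had levels of 11.45, 13.87 and 13.31 on these arrays, 3.64-fold lower on ECRS_KO. Itln1 and Chil4 were called lower under every background, scaling and source of values tried. In Chil4 the ECRS_WT level lay above both other arrays.

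Mediators of general inflammation were lower in smaller numbers. Of 8 measured cytokine genes 3 were lower: Csf2 at least 2.88-fold, Csf1 2.46-fold and Il1b 2.31-fold, and 1 was at 2-fold under median scaling. Of 11 phospholipase A2 and eicosanoid genes 2 were lower, the leukotriene synthase Ltc4s 3.17-fold and the prostaglandin synthase Ptges 2.05-fold. Of 14 interferon-response genes 5 were lower and 0 higher. Irf8 was at least 2.76-fold and the guanosine triphosphatase Igtp 2.30-fold lower, beside Cxcl9, Ifi47 and Isg20. Under median scaling 2 were lower and 2 others were higher. With limma's own inference 1 was lower (median -0.11), and with no scaling 0 were lower and 3 higher. Parp14, a mono-ADP-ribosyltransferase, had a level of 7.0 on ECRS_KO, 8.73 on ECRS_WT and 9.02 on Control_WT, 4.04-fold lower on ECRS_KO. Csrnp1, a nuclear protein rich in cysteine and serine, was 5.59-fold lower, and the vascular transcription factor Klf2 was 2.34-fold lower.

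Secreted defence proteins of the surface epithelium and glands held several of the lowest values. Slpi, an inhibitor of leukocyte proteases, had a level of 8.76 on ECRS_KO, 10.76 on ECRS_WT and 11.22 on Control_WT, 5.51-fold lower on ECRS_KO. Gp2, a glycoprotein that binds bacteria, had levels of 6.39, 9.09 and 8.61 on these arrays, 4.64-fold lower. Wfdc3, a whey acidic protein, was 4.92-fold lower, while another of its probes showed -0.25. Slpi, Gp2 and Wfdc3 were among the 22 lower genes called under each of the 3 other scalings. Of 18 measured club cell and surface secretory genes 2 were lower, these being Slpi and Gp2, and Sec14l3 was higher at 2.09-fold. With scaling on the probes detected on all arrays 8 of the 18 were lower and 0 higher, with a median of -0.88 in place of -0.33, and Sec14l3 differed by 0.70. Of 5 measured secretoglobins 2 were higher and 3 lower: Scgb1b27 was 2.21-fold higher besides Scgb1a1, and Scgb2b24, Scgb2b2 and Scgb1b2 were 4.13-fold, 3.82-fold and 2.32-fold lower.

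Among 16 measured genes of the nasal glands 1 was higher and 4 were lower, with a median of 0.07 that turned to -0.13 under median scaling, where 1 was lower. Lcn4, a lipocalin of the nasal mucosa, had a level of 13.98 on ECRS_KO, 12.68 on ECRS_WT and 12.24 on Control_WT, 3.34-fold higher on ECRS_KO. Bpifb9b, a member of the family of PLUNC lipid-binding proteins, was 2.31-fold lower with levels of 9.42 on ECRS_KO and 10.62 on Control_WT, but was not detected on ECRS_WT (4.53). Mup2, a lipocalin of the major urinary protein family, was at least 2.84-fold lower, and Bpifb1 and Bpifa2 were 2.18-fold and 2.13-fold lower. The abundant Bpifa1 differed by -0.24 and was not called. Of 9 mucin and trefoil genes 2 were lower, the membrane mucins Muc4 (2.38-fold) and Muc20 (2.36-fold), and 0 were at 2-fold under median scaling.

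Epithelial genes were called in both directions in small numbers, where over all genes 6.91% were higher and 5.66% lower. Of 22 measured ciliated cell genes 2 were higher and 3 lower, and 1 was lower under median scaling. Tppp3, a tubulin-binding protein, was 2.67-fold lower and the tektin Tekt4 2.27-fold, while the ciliary transcription factor Rfx3 was at least 2.37-fold higher. Ccdc113 was 2.21-fold lower and Ccdc40 2.13-fold higher. Of 12 ion and water transport genes Aqp3, a water and glycerol channel, was 4.23-fold higher (10.94 on ECRS_KO, 11.08 on ECRS_WT and 8.86 on Control_WT). The sodium channel subunits Scnn1b and Scnn1a were 2.20-fold and 2.06-fold lower, and neither was at 2-fold under median scaling. Of 14 junction and keratin genes 2 were lower, Krt15 (2.27-fold) and Cldn7 (2.05-fold). Of 10 genes of keratinocytes and their cornified envelope 3 were lower, the envelope precursor Sprr3 at least 3.50-fold, Sbsn 2.94-fold and the transglutaminase Tgm1 2.33-fold. With limma's own inference 0 of the 10 were lower (median -0.15).

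Several cartilage genes were higher. Of 19 measured bone and cartilage genes 6 were higher, 0 lower and 13 not called, with a median of 0.34 that was 0.0098 with scaling on the probes detected on all arrays, where 5 were higher. Col10a1, the collagen of hypertrophic cartilage, had a level of 12.09 on ECRS_KO, 10.12 on ECRS_WT and 8.23 on Control_WT, 14.5-fold higher on ECRS_KO, and both steps between neighbouring arrays passed 2-fold. Col2a1, the main collagen of cartilage, had levels of 11.39, 9.41 and 9.33 on these arrays, 4.18-fold higher. The proteoglycan Acan was 3.50-fold, the matrix protein Comp 2.95-fold, Matn1 2.37-fold and Col9a1 at least 2.22-fold higher. Sox9, the transcription factor of chondrocytes, and the bone protein Ibsp differed by 0.34 and -0.19 and were not called. Pcolce2, an enhancer of procollagen processing, was 8.89-fold higher, with levels of 10.56 on ECRS_KO and 7.41 on Control_WT. None of the 16 measured fibrillar collagen and matrix genes was called at 2-fold (1 was higher under median scaling), with Mmp2 at -0.52 and Col4a2 at 0.23.

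Other tissues that a dissection can carry were few among the calls. Of 8 measured skeletal muscle genes the calcium pump Atp2a1 was at least 3.19-fold higher and the calcium buffer Pvalb 2.78-fold lower. Of 6 erythroid genes the globin Hbb-b2 was 4.15-fold higher and the anion exchanger Slc4a1 2.0-fold lower. The melanocyte antigen Mlana was at least 3.73-fold lower. None of the 4 adipocyte genes was called, with Scd1 at 0.70 and Cidea at 0.09. The part of dissection in the differences of cartilage, olfactory and glandular genes was not tested. Of 4 sex-linked genes with a probe 0 were detected.

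**Figure D4:**
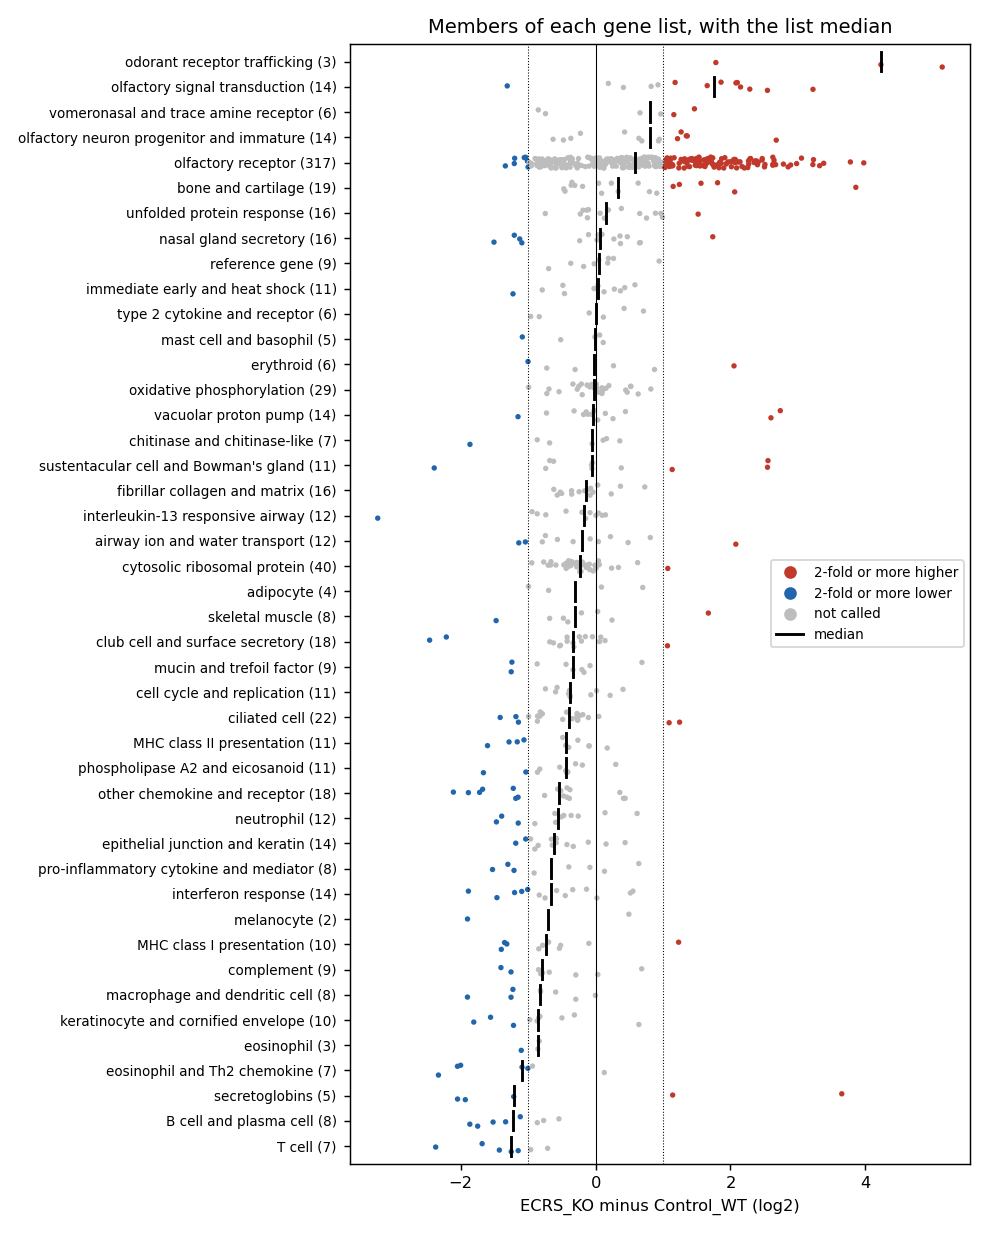
Log2 difference of ECRS_KO minus Control_WT (horizontal axis) for each measured member of 44 gene lists, ordered by the list median (black bar), with the number measured in brackets. Odorant receptor trafficking (median 4.23) and olfactory signal transduction (1.76) stand at the top, and T cell genes (-1.25) at the bottom.

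Several of the largest differences belonged to broadly expressed genes. Hnrnpk, an RNA-binding protein, had a level of 10.17 on ECRS_KO, 10.15 on ECRS_WT and 6.28 on Control_WT, 14.8-fold higher on ECRS_KO. Its other probe was at least 1.57-fold higher. The Hnrnpk probe used was narrowly detected on ECRS_KO (detection p-value 0.0046), not detected on ECRS_WT (0.020) and narrowly detected on Control_WT (0.0088). Rnf13, an endosomal ubiquitin ligase, had levels of 10.41, 10.75 and 6.63 on these arrays, 13.7-fold higher. Snurf was 11.9-fold higher by 1 probe and -0.33 by another. The proton pump subunit Atp6v1a was 6.07-fold higher by 1 probe and 0.11 on the log2 scale by another, and Atp6ap2, a pump accessory protein, was 6.68-fold higher. Herpud1, of protein quality control in the endoplasmic reticulum, was 2.87-fold higher and the only called gene among 16 of the unfolded protein response, of which 6 were at 2-fold under median scaling. In Rnf13, Atp6v1a, Atp6ap2 and Herpud1 the ECRS_WT level was close to that of ECRS_KO. The same held for Hnrnpk, though its probe was not detected on ECRS_WT.

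At the other end, Fbxw5, a substrate receptor of a ubiquitin ligase, had a level of 5.98 on ECRS_KO, 6.38 on ECRS_WT and 11.22 on Control_WT, 37.6-fold lower on ECRS_KO. Serpina1e, a protease inhibitor of the alpha-1-antitrypsin family, was at least 12.5-fold lower, and the proteasome subunit Psmc1 at least 9.31-fold. The uncharacterised BC018473 was at least 88.3-fold higher on ECRS_KO (11.66 on ECRS_KO, 11.61 on ECRS_WT and not detected on Control_WT), and its other probe at least 7.54-fold. A730008H23Rik was 8.88-fold and Mreg, a melanosome transport protein, 6.52-fold higher.

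Genes used by every cell moved with the scaling. None of the 29 oxidative phosphorylation genes was called (2 were higher under median scaling), with a median of -0.02, and Atp5b and Cox4i1 lay at 0.01 and 0.02. None of the 9 commonly used reference genes was called (1 was higher under median scaling), with Ppia at 0.05 and Eef1a1 at -0.18. Under median scaling Atp5b, Cox4i1, Ppia and Eef1a1 lay at -0.44, -0.44, -0.19 and -0.46, and with scaling on the probes detected on all arrays at -0.89, -0.89, -0.64 and -0.90. Of 40 measured cytosolic ribosomal proteins 1 was higher, Rps15a at 2.10-fold, with a median of -0.23. With scaling on the probes detected on all arrays 10 of the 40 were lower, with a median of -0.70. Of 11 cell cycle genes 0 were called, with Cenpa at -0.57 and Mcm5 at -0.38. Of 14 proton pump genes 2 were higher and 1 lower, the lower one being Atp6v1c2 at 2.22-fold.

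The ECRS_WT array places these differences between 2 steps that share arrays with the comparison and with each other, so the steps are only set side by side. ECRS_WT against Control_WT gave 330 higher genes (3.76% of 8766) and 123 lower (1.40%). ECRS_KO against ECRS_WT gave 421 higher (4.72% of 8919) and 210 lower (2.35%). By the rule that named genes past 2-fold in both steps, 14 genes were called higher in both steps, among them Col10a1, Rtp2, Rtp1, Olfr690 and Olfr578, and 2 were lower in both.

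**Figure D5:**
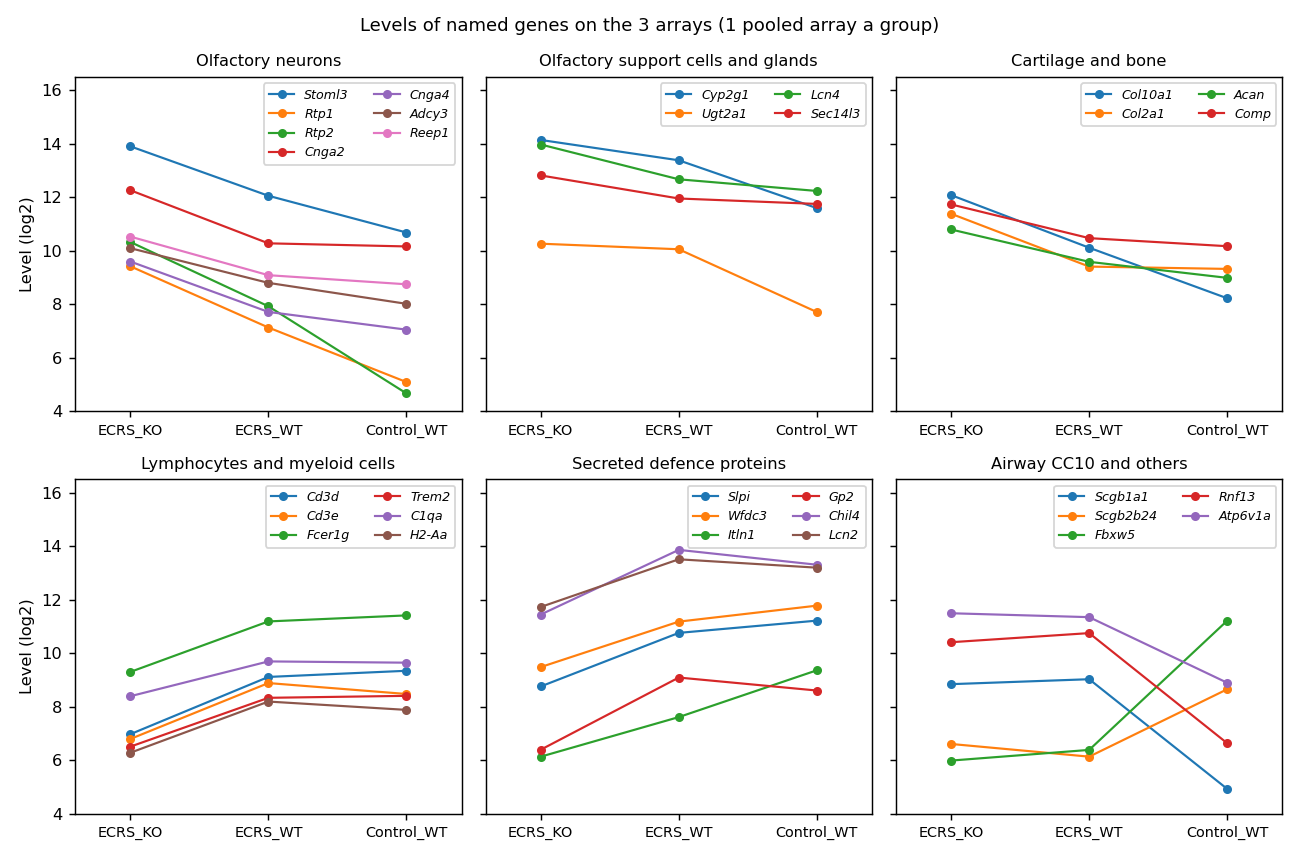
Log2 level (vertical axis) of named genes on the ECRS_KO, ECRS_WT and Control_WT arrays, 1 pooled array a group, with lines joining the values of a gene. Stoml3 is at 13.91, 12.06 and 10.69 in that order, and Cd3d at 6.97, 9.11 and 9.34.

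Some genes stood apart on ECRS_WT alone, and the direct comparison of ECRS_KO with Control_WT does not show them. Mmp3, a matrix-degrading protease, had a level of 5.05 on ECRS_KO, 8.60 on ECRS_WT and 5.55 on Control_WT. Ly6d, an epithelial surface protein, had levels of 12.41, 14.03 and 12.36 on these arrays, and the macrophage gene Ms4a7 had 7.81, 9.33 and 7.82. Bpifb5, a PLUNC family protein, had 7.86, 6.33 and 7.82. In all, 14 genes were called higher on ECRS_WT than on Control_WT and then lower on ECRS_KO than on ECRS_WT, and 22 genes were called the other way round.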

How the data were processed

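Biotin-labelled cRNA of 3 pools of total RNA, 5 mice each, was hybridised to 3 Illumina bead arrays, and groups were taken from the labels. Per the file headers, the deposited non-normalized table gives the signal intensity of each of 35226 probes with its detection p-value. The authors' series table holds normalized intensity, and BeadStudio is named in the submitters' processing notes without a version. The authors' values on Control_WT equalled the signal plus 70.6. Genome build and annotation: not given in the sources used here.

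Starting from the deposited intensity, log2 values were computed with limma 3.58.1 in R 4.3.3, by normexp background correction with an offset of 16 and quantile normalization of the 3 arrays. Probes were put into 100 bins by detection p-value, and the median signal of each bin served to estimate the mean and SD of the negative controls. Limma's own inference was not used for the values reported, because 222, 178 and 153 probes with a signal over 1000 on ECRS_KO, ECRS_WT and Control_WT were not detected. It gave background SDs of 361, 356 and 259.6, against 16.9, 13.7 and 9.23 from the bins. A probe was detected at p under 0.01, and a gene was called at 2-fold with its probe detected on the brighter array. The lowest detected levels, which set the bounds, were 5.00, 5.06 and 5.19. Of the probes 20571 had 1 gene symbol, 10 several and 14645 none. Of the named probes 20525 matched RefSeq genes by Entrez identifier, and of a gene's probes the brightest was used (2558 genes had several). Python 3.11.15, numpy 2.4.6, pandas 2.3.3 and matplotlib 3.10.9 were used.

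Genes and lists were chosen with earlier results of these data known. By rule the genes named were Scgb1a1, the 12 with the highest and the 12 with the lowest difference where both arrays detected the probe, the same for 5 and 5 where 1 did, the 3 largest called members of each of 45 lists (or, with none called, the 2 brightest), and the 5 largest in each class of genes called in both steps. There were 123. Other members named, such as further called members, uncalled markers and neighbours of Scgb1a1, were chosen after their values were seen. Alternatives planned numbered 11 with the fold threshold, and 1 was added after seeing the data. No test across arrays was possible with 1 array a group, and the number of arrays limits the precision.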

Additional observations from a re-analysis of the deposited data

Results flagged for a closer look

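Probes without exactly 1 gene symbol lie outside the comparison of genes, and 3711 of the 14655 such probes were detected on ECRS_KO or Control_WT. Of these, 368 were at 2-fold or more higher on ECRS_KO than on Control_WT and 148 lower. They are listed here because they carry signal in data the comparison of genes does not use, and no gene is named from them here.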

How the results depend on the processing

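The number of called genes moved with most choices. Higher and lower genes numbered 213 and 148 with limma's own background inference, 1278 and 129 with median scaling, 295 and 221 with the authors' normalized values, 395 and 391 when detected on both arrays, 231 and 66 at 3-fold, and 3467 and 22 with no scaling between arrays, an alternative chosen after seeing the data. An offset of 50 gave 250 lower genes. The Scgb1a1 difference of 3.65 was 0.74 with limma's own inference, 2.81 with an offset of 50, 2.11 in the authors' values and 4.41 with no scaling. Of the 107 named genes that were called, all kept their direction under the other settings that gave a value, no scaling apart, and 49 kept 2-fold with limma's own inference, 83 with median scaling and 85 with the authors' values. With no scaling Cma1 and Ptges changed sign (0.0143 and 0.0623). Of 44 list medians 29 kept their sign under every setting but no scaling, and 12 under that as well. With median scaling the medians that changed sign were those of mast cell and basophil (0.37), chitinase (0.0723), nasal gland (-0.13), fibrillar collagen (0.21), skeletal muscle (0.12), adipocyte (0.17), erythroid (0.0572), vacuolar proton pump (0.24) and cell cycle genes (0.18). With scaling on probes detected on all arrays they were immediate early (-0.00440), nasal gland (-0.58) and reference genes (-0.41). With the authors' values they were type 2 cytokine (-0.0173), immediate early (-0.0313) and nasal gland genes (-0.00885). With no detection filter they were type 2 cytokine (-0.0829), chitinase (0.0296), pro-inflammatory (0.00222), immediate early (-0.0239) and airway transport genes (0.0423). With no scaling, where the genes that both arrays detected had a median of 0.79, they were sustentacular (0.49), MHC class II (0.40) and I (0.16), macrophage (0.11), complement (0.15), neutrophil (0.24), mast cell (0.92), interleukin-13 responsive (0.54), chitinase (0.63), other chemokine (0.33), pro-inflammatory (0.20), eicosanoid (0.30), interferon (0.37), club cell (0.12), mucin (0.45), ciliated (0.40), ion transport (0.53), junction (0.24), keratinocyte (0.22), fibrillar collagen (0.76), muscle (0.67), adipocyte (0.72), erythroid (0.61), melanocyte (0.11), proton pump (0.80), cell cycle (0.74), oxidative phosphorylation (0.55) and ribosomal protein genes (0.30). The rest were adipocyte genes with limma's own inference (0.00552), erythroid genes at detection p under 0.05 (0.20), oxidative phosphorylation genes detected on both arrays (0.0136) and proton pump genes by the mean over probes (0.00455). Of the called genes, 126 higher and 8 lower ones were called under every background, scaling and source of values tried. The cause of each change was not tested. Signals close to background limit the dim genes. No paired analysis was possible because each group has 1 array.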

Other observations

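Families were added after values had been seen, so they are descriptions only. Of 16 measured genes of neuronal vesicles and the neuronal cytoskeleton 8 were higher on ECRS_KO than on Control_WT and 0 lower, with a median log2 difference of 1.04 (1.45 under median scaling). Snap25, a SNARE protein of vesicle fusion, had a level of 11.94 on ECRS_KO, 10.13 on ECRS_WT and 9.88 on Control_WT, 4.16-fold higher on ECRS_KO. The granule protein Chga was 3.93-fold, the vesicular glutamate transporter Slc17a6 3.50-fold, the calcium sensor Syt1 3.28-fold and the ubiquitin hydrolase Uchl1 2.88-fold higher. Syp and Vamp2 were 1.66-fold and 1.62-fold apart and not called.

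Of 6 measured genes of natural killer and cytotoxic lymphocytes 4 were lower and 0 higher, with a median of -1.74 (-1.28 with median scaling and -0.18 with limma's own inference). Nkg7, a granule membrane protein, was not detected on ECRS_KO (5.94) and had levels of 7.71 on ECRS_WT and 8.14 on Control_WT, at least 4.59-fold lower on ECRS_KO. The receptor subunit Klrd1 was 2.60-fold lower, and Il2rb and Klrb1c were 1.69-fold and 1.33-fold apart and not called. The others were Xcl1 and Ccl5.

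Of 8 measured hnRNP genes 2 were higher, Hnrnpk and Hnrnph1, the second at 6.23-fold, while Hnrnpm and Hnrnpl lay at -0.04 and 0.16. Of 9 SR splicing factors Srsf5 was 4.31-fold higher and the other members were not called. Of 3 measured TMED cargo receptors Tmed2 and Tmed4 were 4.85-fold and 4.30-fold higher and Tmed3 was 1.85-fold apart. In Hnrnph1, Srsf5, Tmed2 and Tmed4 the ECRS_WT level lay nearer to ECRS_KO than to Control_WT. Of 8 whey acidic protein genes 2 were lower, Slpi and Wfdc3. Besides these, Cd200, an inhibitory surface glycoprotein, and Phpt1, a histidine phosphatase, were 3.68-fold and 4.02-fold lower and were among the 8 genes called lower under every background, scaling and source of values tried.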
